A study of Homo sapiens with 3 samples.

Results

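The BASP1 and MARCKS family was described from its 4 genes, BASP1, MARCKS, MARCKSL1 and GAP43, among the 55773 gene symbols of an RNA sequencing table of HaCaT cells. HaCaT is a spontaneously immortalised line of human keratinocytes. The members were taken by symbol as a group of membrane-bound proteins, and the group was chosen by the RPKM values of BASP1, which lay on opposite sides of the control in the 2 THG-1 lines. These values are therefore a description of what chose BASP1. All 3 lines express oncogenic HRasG12V. One was transduced with a THG-1 in which a serine is replaced by alanine (S264A), one with wild-type THG-1 (WT THG-1), and one with empty vector (EV). THG-1 is the protein encoded by TSC22D4. Each line was represented by 1 library, so no spread between cultures can be given, and a difference between libraries cannot be told apart from variation between cultures or transductions. No p-value is given. The sources used here do not say whether the lines are pools or clones.

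BASP1, MARCKS, MARCKSL1 and GAP43 encode small, largely unfolded, acidic proteins that sit on the inner face of the plasma membrane. A lipid at the N-terminus and a patch of basic residues hold them there, where the basic patch clusters the phosphoinositide PIP2 and binds calmodulin. Phosphorylation by protein kinase C, or calmodulin loaded with calcium, lifts the MARCKS proteins off the membrane and frees PIP2 for actin regulators and phospholipases. BASP1 is also known in the nucleus as a corepressor of the transcription factor WT1, and GAP43 is best known from the growth cones of neurons.

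The start of each coding sequence is shown because it carries the lipid anchor by which the family is defined. The first 45 coding bases of the principal transcripts (GENCODE release 29, GRCh38) are given from 5′ to 3′. Capitals mark the start codon together with a GGN codon for glycine, to which myristate is attached, or, in GAP43, with the adjoining cysteine codons, which are known to be palmitoylated.
BASP1: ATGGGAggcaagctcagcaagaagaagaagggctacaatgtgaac
MARCKS: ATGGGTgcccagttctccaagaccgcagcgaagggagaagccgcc
MARCKSL1: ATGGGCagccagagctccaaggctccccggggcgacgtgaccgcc
GAP43: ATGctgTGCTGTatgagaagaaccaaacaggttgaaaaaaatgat

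BASP1, MARCKS and MARCKSL1 had the GGN codon straight after the start, which 7.79% of 19473 genes with a complete coding sequence share, and GAP43 did not. The 4 coding sequences were short, between 588 bases for MARCKSL1 and 999 bases for MARCKS. They were rich in GCN codons, which code for alanine. These made up 30.8% of codons in MARCKS, 25.2% in BASP1, 19.8% in GAP43 and 14.9% in MARCKSL1, against a median of 6.85% over all genes. Codons for glutamate (GAA and GAG) were also frequent, from 14.4% in MARCKSL1 to 19.0% in BASP1, against a median of 6.61%. The GC content was 74.5% in MARCKS, 69.3% in BASP1, 63.4% in MARCKSL1 and 54.0% in GAP43, with a median of 52.8% over all genes.

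The transcript start of the 3 detected genes is shown because the 3 genes followed different patterns over the lines. A link between these sequences and the patterns was not tested. The 250 bases before the RefSeq start (GRCh38.p14) are printed from 5′ to 3′ on the strand of the gene. Capitals mark CCAAT boxes, read as CCAAT or, on the other strand, as ATTGG.
BASP1, chr5:17216573-17216822, + strand: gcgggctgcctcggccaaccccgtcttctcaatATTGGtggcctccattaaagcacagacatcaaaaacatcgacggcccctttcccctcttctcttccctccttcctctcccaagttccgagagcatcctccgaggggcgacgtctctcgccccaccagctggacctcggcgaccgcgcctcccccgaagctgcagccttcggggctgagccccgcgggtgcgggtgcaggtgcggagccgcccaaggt
MARCKS, chr6:113857095-113857344, + strand: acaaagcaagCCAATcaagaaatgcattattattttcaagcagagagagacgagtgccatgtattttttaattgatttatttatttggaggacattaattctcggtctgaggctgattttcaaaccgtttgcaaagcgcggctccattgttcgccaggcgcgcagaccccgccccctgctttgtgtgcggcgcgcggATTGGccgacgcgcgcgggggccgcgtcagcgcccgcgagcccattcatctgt
MARCKSL1, chr1:32336234-32336483, - strand: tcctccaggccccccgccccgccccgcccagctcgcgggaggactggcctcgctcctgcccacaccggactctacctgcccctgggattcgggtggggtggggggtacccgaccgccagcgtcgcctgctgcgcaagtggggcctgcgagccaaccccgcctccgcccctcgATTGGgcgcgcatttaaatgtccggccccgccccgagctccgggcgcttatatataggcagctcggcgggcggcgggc

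A CCAAT box was found on either strand in each of the 4 promoters, GAP43 included, and in 32.0% of 35116 RefSeq promoters of the same length. MARCKS held 2 of them and the others 1 each. The GC box GGGCGG matched 6 times in MARCKSL1, once each in BASP1 and MARCKS and not in GAP43, and was present in 42.6% of promoters. The TATA box letters TATANA, searched on both strands, were found in MARCKSL1 alone among the members, in overlapping matches, and in 17.7% of promoters. None of the 4 windows held the AP-1 site TGANTCA (6.57% of promoters) or a match to the kappa-B consensus (9.96%). The deposited table has 1 row for BASP1, so that transcripts with different starts could not be read apart. Whether the printed starts are those used in these cells was not tested.

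The table gave RPKM, a read count scaled to gene length and library depth, which allows levels to be compared between genes. The depth was 14022885 reads for S264A, 12733479 for WT THG-1 and 32055052 for EV, and read counts were recovered from the steps of the RPKM values. Intervals in parentheses are 95% counting intervals from these reads. They cover counting error only, and can be too narrow even for that, since reads are not independent molecules. TSC22D4 stood at 51.1 RPKM in S264A, 64.9 in WT THG-1 and 7.98 in EV. All 10 keratinocyte markers were at 1 RPKM or more in some library, with summed levels of 1414 RPKM in S264A, 1359 in WT THG-1 and 1077 in EV. KRT14, at 382 RPKM in S264A, 287 in WT THG-1 and 119 in EV, was the one marker of that list past 2-fold in either THG-1 line against EV. KRT5 was at 329 RPKM in S264A, 240.5 in WT THG-1 and 367 in EV. The median log2 difference of the list from EV was -0.01 for S264A and 0.25 for WT THG-1.

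BASP1 was at 1.07 RPKM in the S264A line (0.732 to 1.51, 32 reads), 22.1 RPKM in the WT THG-1 line (20.4 to 24.0, 601 reads) and 3.50 RPKM in the EV line (3.07 to 3.97, 239 reads). The WT THG-1 line stood highest and the S264A line lowest, and the 3 counting intervals did not overlap. This order is what chose BASP1. Such separation was not particular to BASP1, since the 3 intervals of KRT5 and of KRT14, with more reads, did not overlap either. The share of all genes with this property was not counted. BASP1 was 3.27-fold lower in the S264A line than in the EV line (2.25 to 4.89) and 6.33-fold above EV in the WT THG-1 line (5.44 to 7.39). Set against WT THG-1 directly, S264A held 20.7-fold less (14.5 to 30.5). In bulk RNA, fewer cells with the transcript and less transcript per cell cannot be told apart.

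MARCKSL1, which encodes the MARCKS-like protein also called MacMARCKS, was at 17.0 RPKM in S264A (15.4 to 18.8, 406 reads), 39.2 in WT THG-1 (36.6 to 41.9, 847 reads) and 18.0 in EV (16.9 to 19.2, 980 reads). The WT THG-1 line stood apart, and the intervals of S264A and EV overlapped. The ratio of S264A to EV was 0.947, with an interval of 0.841 to 1.06 that includes 1. The WT THG-1 line held 2.18 times the level of the EV line (1.98 to 2.39), and S264A was 2.30-fold lower than WT THG-1 (2.04 to 2.59).

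MARCKS, the founding protein kinase C substrate of the family, was at 30.1 RPKM in S264A (28.7 to 31.5, 1801 reads), 38.3 in WT THG-1 (36.7 to 40.0, 2086 reads) and 38.4 in EV (37.4 to 39.5, 5266 reads). The S264A line was the low one, and the intervals of the other two lines overlapped. The share of all genes with intervals separated in this way was not counted. The log2 difference of S264A from EV, -0.34, was at the 12.2 percentile of 12010 genes, and became -0.55 after upper-quartile scaling. The ratio to EV was 0.782 for S264A (0.741 to 0.825) and 0.997 for WT THG-1 (0.947 to 1.05), and the ratio of S264A to WT THG-1 was 0.784 (0.736 to 0.835). The MARCKS ratio of WT THG-1 to EV depended on scaling, as its log2 difference of 0.00 as deposited became -0.21 in the authors' quantile-normalised columns, -0.26 after upper-quartile scaling and -0.16 after equal-sum scaling.

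GAP43 was listed at 0 in every library. The limit for a count of 0 was set at 3 reads, somewhat below the upper bound of the counting intervals used for levels. For a GENCODE exon length of 2087 bases this is 0.103 RPKM in S264A, 0.113 in WT THG-1 and 0.0448 in EV. GAP43 was therefore not detected at these depths. Pseudogenes could take reads from their parent genes, and their rows were near empty. BASP1P1 and MARCKSL1P1 were at 0 in every library, and MARCKSL1P2 held 1 read with S264A, 0 reads with WT THG-1 and 2 reads with EV. An antisense gene, BASP1-AS1, overlaps the BASP1 locus in the annotation. The sources used here do not give strandedness, so that reads of both strands cannot be told apart.

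**Figure D1:**
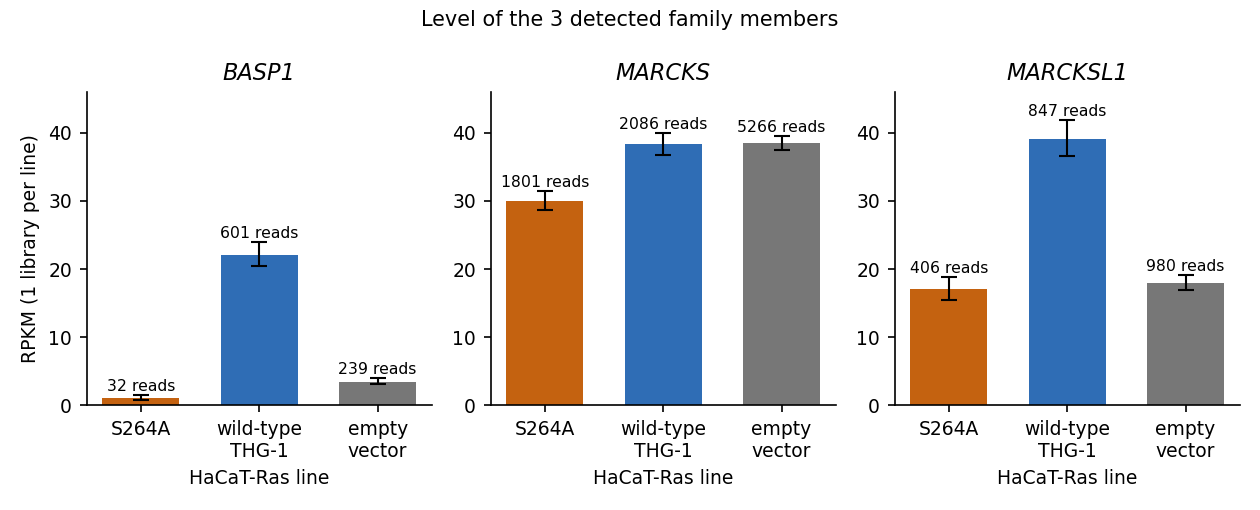
RPKM of BASP1, MARCKS and MARCKSL1 in the S264A, WT THG-1 and EV lines of HaCaT-Ras, with 1 library per line. Bars are RPKM, error bars are exact Poisson 95% counting intervals, and read counts stand above the bars; BASP1 ranges from 32 reads with S264A to 601 reads with WT THG-1, MARCKSL1 is high with WT THG-1 alone, and MARCKS is lowest with S264A.

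The order of the levels differed between lines. In the S264A and EV lines MARCKS was highest, MARCKSL1 next and BASP1 lowest, with intervals that did not overlap. In the WT THG-1 line MARCKSL1 and MARCKS had overlapping intervals, with a MARCKS to MARCKSL1 ratio of 0.979, and BASP1 was below both. MARCKS held 28.1 times the RPKM of BASP1 with S264A, 1.73 times with WT THG-1 and 11.0 times with EV. Among genes at or above 1 RPKM, BASP1 lay at the 1.62 percentile with S264A (11547 genes), the 88.6 percentile with WT THG-1 (11283 genes) and the 37.0 percentile with EV (11265 genes). With S264A, BASP1 was at 1.07 RPKM, and its interval of 0.732 to 1.51 includes the 1 RPKM cutoff. Its percentile there is low because genes below the cutoff were left out. MARCKS stayed between the 93.1 and 94.9 percentiles in the 3 libraries. MARCKSL1 was at the 86.0 percentile with S264A, the 94.1 percentile with WT THG-1 and the 87.2 percentile with EV.

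The summed level of the family was 48.2 RPKM in S264A, 99.6 in WT THG-1 and 59.9 in EV. BASP1 made up 2.22% of this sum with S264A, 22.2% with WT THG-1 and 5.83% with EV. The MARCKS share was 62.4% with S264A, 38.5% with WT THG-1 and 64.1% with EV, and the MARCKSL1 share was 35.4% with S264A, 39.3% with WT THG-1 and 30.0% with EV. MARCKS thus exceeded the other members combined in S264A and EV, and no member did so in WT THG-1.

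**Figure D2:**
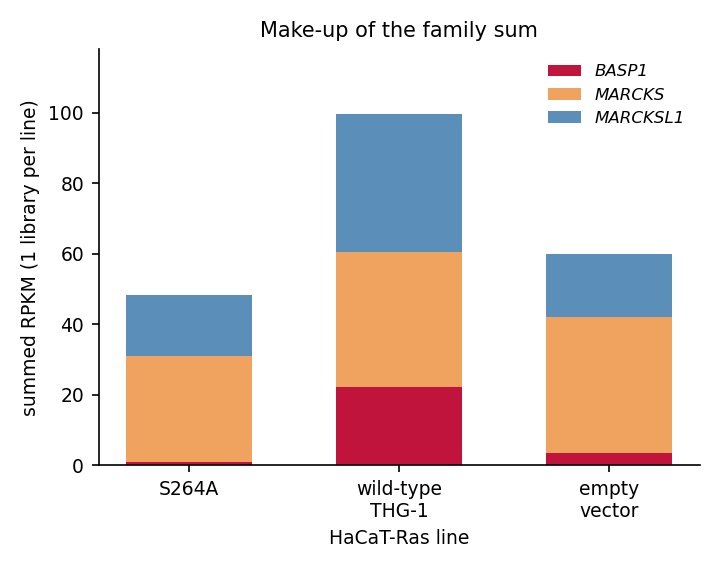
Summed RPKM of BASP1, MARCKS and MARCKSL1 in the S264A, WT THG-1 and EV lines (1 library per line), stacked by gene. The sum is 48.2 RPKM in S264A, 99.6 in WT THG-1 and 59.9 in EV, and the BASP1 and MARCKSL1 layers are thickest with WT THG-1.

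For counts over many genes, differences were taken as log2 of RPKM + 1, which understates the change of low genes. A gene entered a comparison if it reached 1 RPKM in at least 1 of both libraries, and was counted as higher or lower at a difference of 2-fold on that scale. In S264A against EV, 1 of the 3 members compared was lower (BASP1, log2 difference -1.12) and none was higher. Of 12010 genes, 0.824% were lower and 2.99% higher. In WT THG-1 against EV 2 of 3 were higher, BASP1 by 2.36 and MARCKSL1 by 1.08 on the log2 scale, where 4.53% of 11993 genes were higher, and none of the 3 was lower, where 1.54% of genes were. In S264A against WT THG-1 the same 2 members were lower, BASP1 at -3.48 and MARCKSL1 at -1.15, where 2.23% of 12069 genes were lower. MARCKS was under 2-fold in all 3 comparisons (-0.34, 0.00 and -0.34 in that order), and GAP43 entered none. The members' median differences were -0.34, 1.08 and -1.15 in the same order, against 0.02, -0.01 and 0.02 over all genes compared. These calls and medians include BASP1, whose values chose the group, so they cannot be read as an excess over all genes. Each median is the value of a single gene, MARCKS in S264A against EV and MARCKSL1 in the other comparisons. Apart from BASP1, MARCKSL1 alone was past 2-fold, in WT THG-1 against EV and in S264A against WT THG-1. The call of MARCKSL1 against EV sat just past the limit and was lost in 4 of 6 alternatives, with log2 differences of 0.89 in the quantile-normalised columns, 0.83 after upper-quartile scaling, 0.93 after equal-sum scaling and 0.94 with a pseudocount of 5. With that pseudocount BASP1 in S264A against EV was also under 2-fold (-0.49).

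The BASP1 difference between S264A and WT THG-1 was the third lowest of 12069 genes. Against the shared EV library, BASP1 was the 59th highest of 11993 genes with WT THG-1 and the 70th lowest of 12010 with S264A. Genes that lay at least 2-fold higher with WT THG-1 and at least 2-fold lower with S264A numbered 3 of 12379, or 0.0242%. Besides BASP1 these were TIMM23B, a mitochondrial import gene with a near-identical copy, and the pseudogene AC099522.1. TIMM23B was at 0 RPKM in S264A, 8.01 in WT THG-1 and 1.18 in EV, and AC099522.1 was at 1.23 RPKM in S264A, 13.7 in WT THG-1 and 3.92 in EV. The opposite arrangement was found for 2 genes (0.0162%), neither of them a member, the alkaline phosphatase gene ALPP (41.3 RPKM in S264A, 3.62 in WT THG-1 and 14.7 in EV) and the aldehyde dehydrogenase gene ALDH3A1 (21.2 RPKM in S264A, 3.09 in WT THG-1 and 9.67 in EV). These 5 genes were 0.0404% of the 12379, and this arrangement is what chose BASP1.

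**Figure D3:**
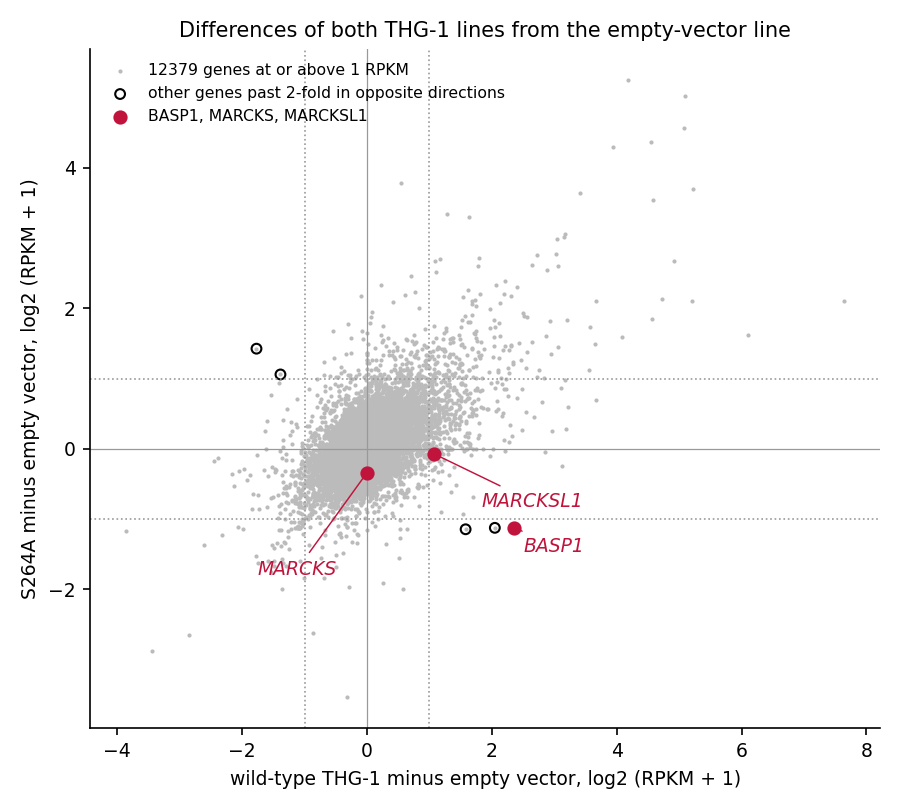
Differences on the log2 (RPKM + 1) scale of S264A from EV (vertical) against those of WT THG-1 from EV (horizontal) for 12379 genes that reach 1 RPKM in any library. Both axes share the EV library, dotted lines mark 2-fold, and BASP1 lies at 2.36 and -1.12 in the lower right with 2 other genes, MARCKSL1 at 1.08 and -0.07 and MARCKS near the centre of the cloud.

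Genes with the most similar pattern were taken by their distance in the plane of both differences from EV, over the 3 libraries, among 6274 genes that reached 5 RPKM in at least 1 library, with pseudogenes and small RNAs left out. The same differences chose BASP1, so a count of its neighbours in part restates that choice. BASP1 had few near neighbours, with 1 gene within a log2 distance of 0.5 and 2 genes within 1. They were TIMM23B at 0.31 and AMOT, which encodes the junction protein angiomotin, at 0.79. AMOT was at 0.747 RPKM in S264A, 8.14 in WT THG-1 and 1.80 in EV. The next were the chemokine gene CXCL1 (1.10), CXorf49B (1.16) and OLFM4, which encodes olfactomedin-4 (1.18). These were high with WT THG-1 but lacked the drop of BASP1 in S264A. Their log2 differences of S264A from EV were -0.03 for CXCL1, -0.24 for CXorf49B and -0.05 for OLFM4. MARCKSL1 had 201 genes within 0.5. The nearest were the interferon-induced gene IFIT3 (0.07), the fibronectin receptor subunit gene ITGA5 (0.08), the readthrough row RPL36A-HNRNPH2 (0.08), the stearoyl-CoA desaturase gene SCD5 (0.11) and DKK3 (0.13). IFIT3 was at 25.3 RPKM in S264A, 54.3 in WT THG-1 and 25.4 in EV. MARCKS lay in the bulk of all genes, with 3084 genes within 0.5, and its nearest were GTF3C6, UQCR10, KIAA1217, FAM103A1 and RPS10, all within 0.03.

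Of the protein-coding genes beside the members on the chromosome, MYO10, HDAC1, HDAC2 and FAM229A reached 1 RPKM, and none of these was past 2-fold in either THG-1 line against EV on the RPKM + 1 scale. The others had no row or were below 1 RPKM in every library and were not compared. MYO10, which encodes an unconventional myosin of filopodia and is the protein-coding neighbour of BASP1 on one side in RefSeq order, was at 9.62 RPKM in S264A, 10.1 in WT THG-1 and 8.52 in EV, and the next gene on that side, FAM134B, was below 1 RPKM in every library. The neighbours of BASP1 on the other side matched no row. HDAC1, the histone deacetylase gene beside MARCKSL1, was at 29.7 RPKM in S264A, 32.3 in WT THG-1 and 31.0 in EV. On its other side FAM229A was at 1.28 RPKM in S264A, 1.32 in WT THG-1 and 1.07 in EV. HDAC2, beside MARCKS, was at 3.65 RPKM in S264A, 3.92 in WT THG-1 and 4.46 in EV.

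The enzymes and partners that act with the family were followed through 8 lists of 69 genes in all. In S264A against EV 2 of 45 compared were at least 2-fold higher (PLCG2 and GSN) and none lower, with 2.99% of all genes higher and 0.824% lower. In WT THG-1 against EV none of 45 was past 2-fold in either direction, with 4.53% of all genes higher and 1.54% lower. In S264A against WT THG-1 the same 2 genes of 46 were higher and none lower, with 1.55% of all genes higher and 2.23% lower. With shares this low, a list of a few genes would often hold none past 2-fold. The absence of such genes from the single lists below therefore says little about those lists. The medians of the genes compared were 0.03, -0.01 and 0.01 on the log2 scale in that order, close to the 0.02, -0.01 and 0.02 of all genes.

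The genes that install the lipid anchor, METAP1, METAP2, NMT1 and NMT2, were all compared and none was past 2-fold. NMT1, the main N-myristoyltransferase, was at 14.4 RPKM in S264A, 14.6 in WT THG-1 and 13.2 in EV. METAP2, which removes the starting methionine, was at 12.0 RPKM in S264A, 12.2 in WT THG-1 and 13.0 in EV. Differences in this list ran from -0.28 to 0.55 on the log2 scale, both from METAP1, the first with WT THG-1 against EV and the second with S264A against WT THG-1.

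Protein kinase C phosphorylates the effector region of MARCKS proteins, and which isoforms do so in these cells was not tested. Of its genes, 4 of 9 reached 1 RPKM (PRKCD, PRKCH, PRKCI and PRKCZ) and none was past 2-fold. PRKCI, an atypical isoform, was at 9.25 RPKM in S264A, 8.85 in WT THG-1 and 10.5 in EV. PRKCH, the eta isoform of stratified epithelium, was at 3.21 RPKM in S264A, 2.90 in WT THG-1 and 2.68 in EV. PRKCB was at 0 in every library. Of 7 calmodulin genes 4 were compared and none was past 2-fold. CALM3 was at 41.9 RPKM in S264A, 45.9 in WT THG-1 and 48.5 in EV, and CALM2 was at 27.5 RPKM in S264A, 27.1 in WT THG-1 and 28.9 in EV.

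None of the 5 kinase genes of PIP2 synthesis compared, of 7 listed, was past 2-fold. PIP4K2C was at 14.3 RPKM in S264A, 14.0 in WT THG-1 and 9.27 in EV, and PIP5K1A, a kinase that makes PIP2 at the plasma membrane, was at 12.2 RPKM in S264A, 9.98 in WT THG-1 and 11.1 in EV. Of 19 genes of phospholipases C and 5-phosphatases that consume PIP2, 12 were compared in each contrast with S264A and 11 in WT THG-1 against EV, and PLCG2 was the one past 2-fold. PLCG2, which encodes phospholipase C gamma 2, was at 3.67 RPKM in S264A, 0.322 in WT THG-1 and 0.913 in EV. It was 4.02-fold higher in S264A than with EV (3.45 to 4.69) and 11.4-fold higher than with WT THG-1 (8.14 to 16.4). The order of the 3 lines was the reverse of that for BASP1. Other listed genes held the same order as PLCG2, such as METAP1, PIP5K1A and PLCD3. PLCG2 did not enter WT THG-1 against EV, since both libraries were below 1 RPKM. PLCB3 was at 23.1 RPKM in S264A, 22.4 in WT THG-1 and 22.4 in EV. PLCD3 was at 24.5 RPKM in S264A, 14.0 in WT THG-1 and 16.6 in EV.

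In the list of 17 membrane-cytoskeleton linkers and PIP2-regulated actin proteins, GSN was the one past 2-fold. GSN encodes gelsolin, which severs actin filaments and is inhibited by PIP2. It was at 34.2 RPKM in S264A, 12.7 in WT THG-1 and 12.8 in EV, 2.68-fold higher in S264A than with EV (2.58 to 2.79) and 2.70-fold higher than with WT THG-1 (2.55 to 2.85). PFN1, which encodes profilin, was at 195 RPKM in S264A, 246 in WT THG-1 and 214 in EV. EZR, which encodes ezrin, was at 101 RPKM in S264A, 138 in WT THG-1 and 91.8 in EV. ADD1, whose product adducin carries a MARCKS-related domain, was at 4.55 RPKM in S264A, 2.31 in WT THG-1 and 5.09 in EV, under the 2-fold limit on the RPKM + 1 scale (-0.88 for WT THG-1 against EV).

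Of the corepressor partners of BASP1, WT1 itself was at 0 in every library. HDAC1 is given above, and PHB, which encodes prohibitin, was at 18.8 RPKM in S264A, 23.5 in WT THG-1 and 21.3 in EV. SMARCA4 completed the list, and none of the 3 detected was past 2-fold in any comparison. Of the IQ-motif genes related to GAP43, PCP4 was at 0 in every library and NRGN, which encodes neurogranin, was at 2.56 RPKM in S264A, 1.32 in WT THG-1 and 1.10 in EV.

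**Figure D4:**
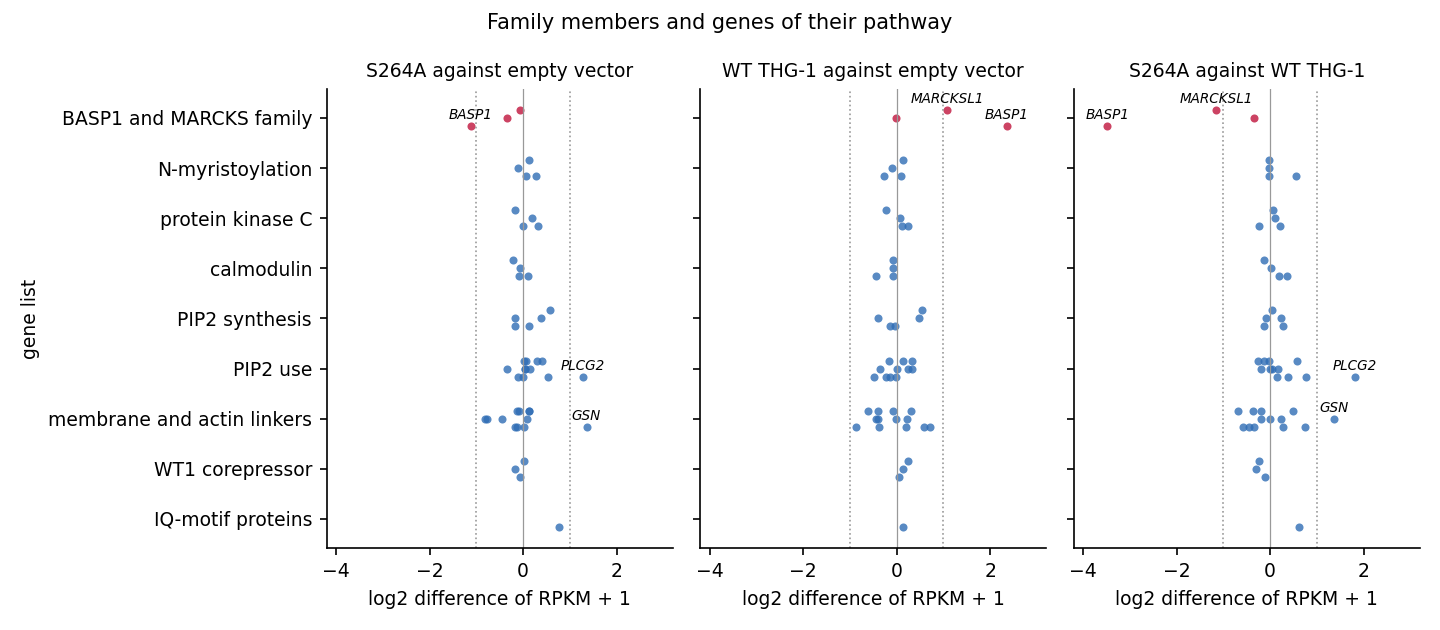
Differences on the log2 (RPKM + 1) scale for the family (red) and 8 lists of pathway genes (blue), in S264A against EV, WT THG-1 against EV and S264A against WT THG-1. Each point is a gene reaching 1 RPKM in either library, spread vertically for legibility, dotted lines mark 2-fold, and named genes are those past it; BASP1 is the farthest point in the outer right panel at -3.48.

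BASP1 and GAP43 are also known as neuronal genes, and markers of other cell types were read beside them. Of 10 neuron markers, SNAP25, STMN2, ELAVL4 and DCX were at 0 in every library and 3 reached 1 RPKM (TUBB3, NEFL and MAP2). The summed neuron markers were at 43.6 RPKM in S264A, 50.0 in WT THG-1 and 35.8 in EV. NEFL, which encodes neurofilament light, was at 7.53 RPKM in S264A, 16.0 in WT THG-1 and 8.08 in EV, and was under 2-fold in every comparison on the RPKM + 1 scale. The other neuron markers differed in their order of lines. TUBB3 was at 35.2 RPKM in S264A, 33.3 in WT THG-1 and 26.1 in EV. MAP2 was at 0.605 RPKM in S264A, 0.489 in WT THG-1 and 1.26 in EV, and SYT1 at 0.231 RPKM in S264A, 0.0121 in WT THG-1 and 0.293 in EV, both lowest in WT THG-1. Of 10 leukocyte markers CD68 alone reached 1 RPKM, at 1.70 RPKM in S264A, 5.21 in WT THG-1 and 0.941 in EV, past 2-fold in WT THG-1 against EV and in S264A against WT THG-1, and the sum of the list was 2.12 RPKM in S264A, 6.56 in WT THG-1 and 1.34 in EV, with MS4A1 at 0. Summed fibroblast markers (2 of 10 at or above 1 RPKM) were at 6.42 RPKM in S264A, 5.44 in WT THG-1 and 5.19 in EV, melanocyte markers (1 of 7) at 1.35 RPKM in S264A, 2.28 in WT THG-1 and 1.32 in EV and endothelial markers (1 of 5 in the table) at 1.85 RPKM in S264A, 0.828 in WT THG-1 and 0.556 in EV. LUM and PDGFRA, TYR, and TEK were at 0 among them. The part of NEFL, CD68 or other marker genes in the differences of BASP1 and MARCKSL1 was not tested.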

How the data were processed

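Total RNA of the 3 HaCaT-Ras lines was extracted with Trizol and sequenced on an Illumina NextSeq500, per the labels. Of the deposited table, with 57773 rows, the expression value columns are RPKM computed by the authors library by library, and the normalised columns are RPKM that the authors quantile-normalised, since the sorted columns are identical. The submitters' processing notes name build hg19. The sources used here give no aligner, counting program, annotation, library selection or strandedness. Where a symbol had several rows (234 symbols), the one highest on average was used.

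Depth was taken from genes with 1 exon in GENCODE release 29, taking their commonest low value as 1 read, and the reads of a gene from the length at which all 3 libraries held whole reads within 0.001. This gave whole reads for all 12379 symbols at or above 1 RPKM, 51.0% of them at the GENCODE length, 37.6% at the fitting length nearest to it and 11.4% at the smallest fitting length. The BASP1 row fitted a length of 2133 bases and MARCKS 4273, each the fitting length nearest to GENCODE (2217 and 4275). MARCKSL1 fitted its GENCODE length of 1699. The procedure was tested on simulated data, whose results are not given here. The BASP1 and MARCKS read counts therefore rest on the fitted lengths. Ratios have exact Clopper-Pearson 95% intervals and levels exact Poisson intervals. No test was run, as each line had 1 library. The members and gene lists were chosen with earlier results of these data known. The genes named were all members, rows whose symbol starts with a member's, list genes past 2-fold, the 2 highest of each pathway list, the 5 genes nearest to each detected member, TSC22D4 and HRAS as label checks (HRAS 22.4 RPKM in S264A, 27.8 in WT THG-1 and 23.9 in EV). ADD1, METAP1, single markers and the genes of opposite direction were named after their values were seen, and chromosomal neighbours by position. Sequences came from RefSeq (all 4 promoters matched by symbol) and GENCODE. Alternatives were the quantile-normalised columns, upper-quartile, equal-sum and median-ratio scaling, pseudocounts of 0.1 and 5, a filter at 5 RPKM and none. Python 3.11.15, numpy 2.4.6, pandas 2.3.3, scipy 1.17.1 and matplotlib 3.10.9 were used.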

Additional observations from a re-analysis of the deposited data

Results flagged for a closer look

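BASP1 lay on opposite sides of the EV line in the 2 THG-1 lines, with log2 differences of -1.12 for S264A and 2.36 for WT THG-1 on the RPKM + 1 scale. With 1 library per line the difference between both was not tested. The family was chosen for this arrangement of BASP1, which no other member showed at 2-fold in both lines.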

How the results depend on the processing

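No paired analysis was possible because each line had 1 library, which also leaves no library to omit. GAP43, at 0 throughout, gave no alternative values. BASP1 kept its directions under the 6 alternatives run for single genes, and MARCKSL1 was likewise higher with WT THG-1 than with EV and lower with S264A than with WT THG-1 in all 6. A change of pseudocount alone cannot reverse a direction, so the pseudocounts of 0.1 and 5 bear on size only. Log2 differences of S264A from EV became -1.62 with a pseudocount of 0.1 and -0.49 with 5 for BASP1, and -0.55 for MARCKS and -0.27 for MARCKSL1 with upper-quartile scaling. Those of WT THG-1 from EV became 2.14 after upper-quartile scaling, and 2.63 and 1.67 with pseudocounts of 0.1 and 5 for BASP1. For MARCKS they became -0.21 (quantile-normalised), -0.26 (upper quartile) and -0.16 (equal sum), and for MARCKSL1 0.89, 0.83 and 0.93 in these settings and 0.94 with a pseudocount of 5. Those of S264A from WT THG-1 became -4.25 and -2.16 with pseudocounts of 0.1 and 5 for BASP1, and -0.20 (quantile-normalised) and -0.23 (equal sum) for MARCKS. Counts moved mostly with the pseudocount and the filter. With a pseudocount of 0.1, a pseudocount of 5 and a filter at 5 RPKM, genes higher and lower numbered 695 and 246, 85 and 9, and 178 and 26 for S264A against EV (359 and 99 as reported). They numbered 869 and 492, 166 and 18, and 317 and 70 for WT THG-1 against EV (543 and 185), and 509 and 518, 26 and 63, and 71 and 149 for S264A against WT THG-1 (187 and 269). With upper-quartile scaling 177 genes were lower in S264A and 362 with WT THG-1 than with EV, and the median of all genes moved to -0.16 and -0.22. The share of higher genes among those called became 59.3% (258 higher and 177 lower) for S264A, against 78.4% as reported, and 51.8% (389 higher and 362 lower) for WT THG-1, against 74.6%. Equal-sum scaling moved the median to -0.14 and the share to 62.7% for WT THG-1 against EV, with 434 higher and 258 lower, and moved the median to 0.12 and the share to 50.9% (223 higher and 215 lower) for S264A against WT THG-1, against 41.0% as reported. Genes in opposite directions numbered 66 with a pseudocount of 0.1 and 1 with 5, which left BASP1 out. The cause was not tested. BASP1 had 32 reads in the S264A library, and the spread between cultures was not measured.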
